A study of Mus musculus with 12 samples.

Results

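Lysosomal genes were followed in BV2 cells, an immortalized line of mouse microglia, the resident macrophages of the brain. The set holds 36 genes of 43432 in the count tables: 10 proteases or protease-associated enzymes, 7 enzymes that take apart sugar chains (6 glycosidases and 1 sulfatase), 6 genes of lipid handling, 7 genes of membrane proteins (counting with them progranulin, a secreted precursor), 3 genes of the proton pump, and the 3 transcription factors Tfeb, Tfe3 and Mitf. The genes were chosen by name for these roles and matched to mouse Ensembl identifiers. Poly(A) RNA was sequenced in 12 libraries, 2 from each of 6 groups of wild-type BV2 cells: untreated, 100 ng/mL lipopolysaccharide (LPS, a bacterial outer membrane component that activates microglia), and LPS with 10 or 30 µM 6-gingerol or with 10 or 30 µM 6-shogaol. Every well was switched to serum-free medium 24 h after plating and kept in it for 4 h or longer. The compound was added 1 h before LPS, and the time from LPS to harvest is not given in the sources used here. There was no library of either compound without LPS.

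Lysosomes are acidic organelles in which proteases, glycosidases, sulfatases and lipases digest material taken up from outside the cell or delivered by autophagy. A V-type ATPase pumps protons across the lysosomal membrane, heavily glycosylated membrane proteins line that membrane, and carrier proteins move freed cholesterol and lipids onward. TFEB, TFE3 and MITF are related helix-loop-helix factors that bind E-box-like motifs in the promoters of many lysosomal genes, and their entry into the nucleus is restrained by mTORC1 kinase at the lysosomal surface. 6-gingerol and 6-shogaol are pungent phenols of ginger. 6-shogaol is the dehydrated form of 6-gingerol and carries an unsaturated ketone in place of the hydroxy ketone.

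The libraries held 16534960 to 21179867 assigned fragments each, and 12705 genes passed the filter on low counts, among them all 36 lysosomal genes. All 11 microglial markers checked passed the filter, but 2 of the defining ones, Cx3cr1 and P2ry12, stood at or below 1.09 CPM (fragment counts scaled to a common library size) in every library, and none of the 4 astrocyte or 4 neuron markers passed. Il6, an inflammatory cytokine, averaged 8.04 CPM untreated, 203 with LPS and 3.52 with LPS and 30 µM 6-shogaol. Tnf, another, averaged 16.0, 149 and 40.5 CPM in the same groups. Gclm, a target of the oxidative stress factor NRF2, averaged 36.7, 62.4 and 138 CPM there. In the 6-gingerol and 10 µM 6-shogaol groups Gclm averaged 60.4 to 67.5 CPM, near LPS alone. Hmox1, also an NRF2 target, averaged 229 CPM untreated, 525 with LPS and 433 with LPS and 30 µM 6-shogaol. Unlike Gclm, it was thus lower with 30 µM 6-shogaol than with LPS alone. The 2 untreated libraries had more wide gaps than other pairs, though not a clearly larger typical gap. The median absolute log2 gap over the 36 genes was 0.129 untreated, 0.122 with 10 µM 6-gingerol and 0.0577 to 0.0999 in the other groups. For 6 of the 36 genes the untreated libraries differed by more than 0.3 on the log2 scale, against 0 or 1 gene in each of the other groups. Mean fragment length ranged from 223 to 252.3 bases over the libraries and differed within pairs by 0.97 to 26.1 bases.

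The E-box CACGTG, the core of the motif recognised by the TFEB family, was searched on both strands of the 250 bases before each RefSeq transcript start (build GRCm38.p6). It was present for 11 of the 31 lysosomal genes with a promoter entry (35.5%), against 6.86% of all 27025 genes in the table. The 7-letter form TCACGTG, which contains the E-box, was present for 10 of 31 (32.3%), against 3.58% of all genes, and the 10-letter CLEAR palindrome built on it was present for 0 of 31, against 0.27%. By role, the E-box was found for 4 of 8 proteases, 4 of 7 sugar-chain enzymes, 2 of 7 membrane proteins, 1 of 2 pump genes, 0 of 4 lipid genes and 0 of 3 transcription factors. Npc1, Atp6v1h, Ctsb, Ctsh and Asah1 had no entry. Some genes have more than one window, and a gene was counted when any of its windows held the motif. A match describes letters in a window, not bound protein.

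The sequences shown are the E-boxes before 3 genes whose level changed in these cells (Ctsd, Lgmn, Sgsh) and before 2 with several copies (Lamp1, Gla). In the main edgeR fit the levels of these 2 passed the test in no comparison. DESeq2 called Lamp1 lower with 30 µM 6-shogaol against 30 µM 6-gingerol (DESeq2 adjusted p = 0.0334) and against untreated (0.0158). With scaling by library totals edgeR called it lower against untreated too (edgeR adjusted p = 0.0253). Each is written 5′ to 3′ on the gene's own strand from RefSeq's promoter sequences, with the E-box in capitals. Distances count the first base of the E-box before the transcript start.
Ctsd, chr7:142388047-142388077, minus strand, 245 bases before the start: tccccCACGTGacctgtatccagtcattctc
Ctsd, chr7:142387908-142387937, minus strand, 98 bases before the start: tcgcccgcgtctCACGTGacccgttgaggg
Lgmn, chr12:102439116-102439161, minus strand, 49 bases before an alternative start: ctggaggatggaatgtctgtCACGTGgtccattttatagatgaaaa
Sgsh, chr11:119355522-119355551, minus strand, 29 bases before the start: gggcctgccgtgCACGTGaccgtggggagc
Lamp1, chr8:13159080-13159160, plus strand, 4 copies 61 to 15 bases before the start: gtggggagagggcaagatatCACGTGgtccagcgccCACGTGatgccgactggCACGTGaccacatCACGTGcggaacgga
Gla, chrX:134601174-134601252, minus strand, 2 copies 227 and 194 bases before the start: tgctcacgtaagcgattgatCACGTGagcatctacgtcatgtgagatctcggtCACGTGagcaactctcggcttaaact
In the GENCODE M21 annotation of the same assembly the Lamp1, Gla and far Ctsd stretches lie before the gene model. The Lgmn stretch lies in an intron, and the near Ctsd and the Sgsh stretches touch an exon of their gene. The 5 genes were picked for carrying the same 6 letters and for a changed level or several copies. A link between motif and RNA level was not tested. The other genes with the E-box, not shown, were Atp6v1a, Ctsa, Ctsl, Gaa, Glb1 and Mcoln1. Changes in RNA level are given below for each role.

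Between genes, levels were compared per transcript length, in TPM (transcript abundances scaled to a common total, with no correction for library composition). With LPS alone the highest levels were those of some proteases. Ctsz, a carboxypeptidase, stood at 1768 ± 38.2 TPM (SD, n = 2) and Ctsd, the aspartic protease cathepsin D, at 1758 ± 39.9 TPM. The difference between these 2 was within their spread. The carboxypeptidase Ctsa, which also protects other lysosomal enzymes, followed at 1284 ± 5.18 TPM, the cysteine protease Ctsl at 1112 ± 13.4 TPM and Ctsb at 948 ± 16.0 TPM. Other proteases ranked far lower: Tpp1 at 138 ± 3.22 (rank 20), Ctsc at 116 ± 7.41 (rank 21) and Ctsh at 39.8 ± 8.99 TPM (rank 29). At the bottom stood Tfe3 at 21.6 ± 2.33, Mitf at 10.8 ± 0.184, Tfeb at 10.4 ± 0.113 and Sgsh, the heparan sulfate sulfatase, at 4.01 ± 0.141 TPM. Ctsd held rank 1 of 36 in every group but LPS, where it was second, and reached 2787 ± 266 TPM with LPS and 30 µM 6-shogaol. Sgsh held rank 36 in all 6 groups.

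**Figure D1:**
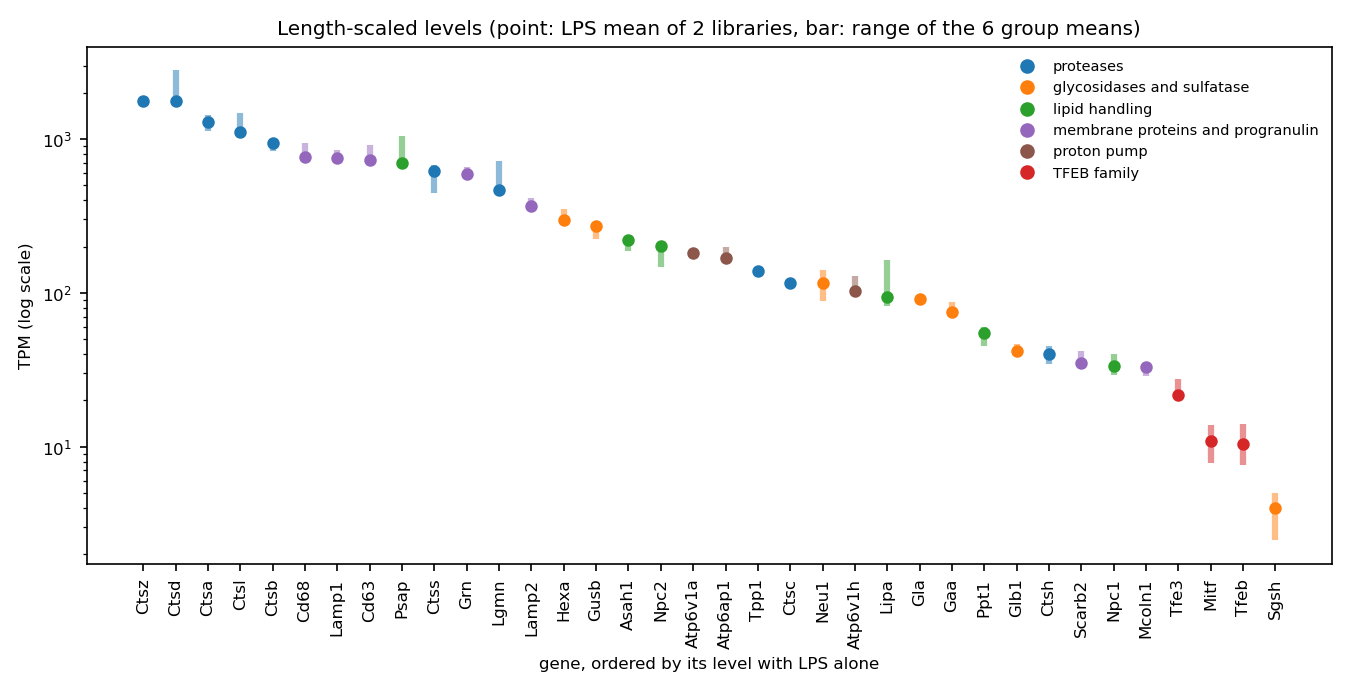
Length-scaled level (TPM, log axis) of each of the 36 lysosomal genes with LPS alone (point, mean of 2 libraries) and the range of the 6 group means (bar), coloured by role and ordered by level. Proteases fill the upper end, from Ctsz at 1768 TPM to Ctsb at 948 TPM, and the 3 transcription factors and Sgsh the lower end. Other proteases stand lower, down to Ctsh at 39.8 TPM.

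Within genes, levels moved little across the 6 groups. The ratio of the highest to the lowest group mean in CPM had a median of 1.27 over the 36 genes and stayed below 1.5 for 29 of them. The exceptions were Sgsh (2.09), Lipa (1.97), Tfeb (1.88), Mitf (1.72), Neu1 (1.6), Lgmn (1.57) and Ctss (1.54). Together the 36 genes made up 2.61% to 2.88% of the assigned fragments in a library, with both untreated libraries at the upper end (2.86% and 2.88%). These shares are not corrected for library composition. Summed in CPM, which are, the 36 genes stood at 29022 and 27123 untreated and at 27609 and 27096 with LPS. Over all libraries the sums ran from 25317 to 29393 CPM.

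The question for each treatment was how many of the 36 changed beyond the spread between libraries. A gene is called here when its adjusted p is under 0.05 in edgeR's quasi-likelihood test, adjusted over all 12705 genes. LPS against untreated called 7 of 36 (19.4%), 5 higher and 2 lower, where 11.8% of all genes were called (7.66% higher and 4.16% lower). The median change of the 36 was 0.08, against -0.03 for all genes. With 10 µM and with 30 µM 6-gingerol 0 of 36 were called against LPS, where 0% of all genes were called. Neither comparison had 1 of the 36 at an unadjusted p under 0.05, where 1.91% and 1.49% of all genes were, and DESeq2 and limma called 0 of 36 too. The 95% intervals of the 36 changes ran from -0.46 to 0.47 at 10 µM and from -0.46 to 0.44 at 30 µM, so larger shifts than these lie outside every gene's interval. With 10 µM 6-shogaol 0 of 36 were called, where 0.638% of all genes were called. 5 of the 36 were at an unadjusted p under 0.05, where 10.8% of all genes were; DESeq2 called 1 (Npc2) and limma 0. With 30 µM 6-shogaol 7 of 36 were called (19.4%), 3 higher and 4 lower, where 25.4% of all genes were called (12.6% higher and 12.8% lower), and the median change was -0.07, against 0.00 for all genes. The 4 compound comparisons and that of LPS with untreated share the 2 LPS libraries and are therefore not independent of each other. A low or high LPS pair moves the LPS change and the compound changes in opposite directions. The labels do not say whether the 2 libraries of a group came from separate cultures, so every p-value here measures only the spread between these libraries.

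**Figure D2:**
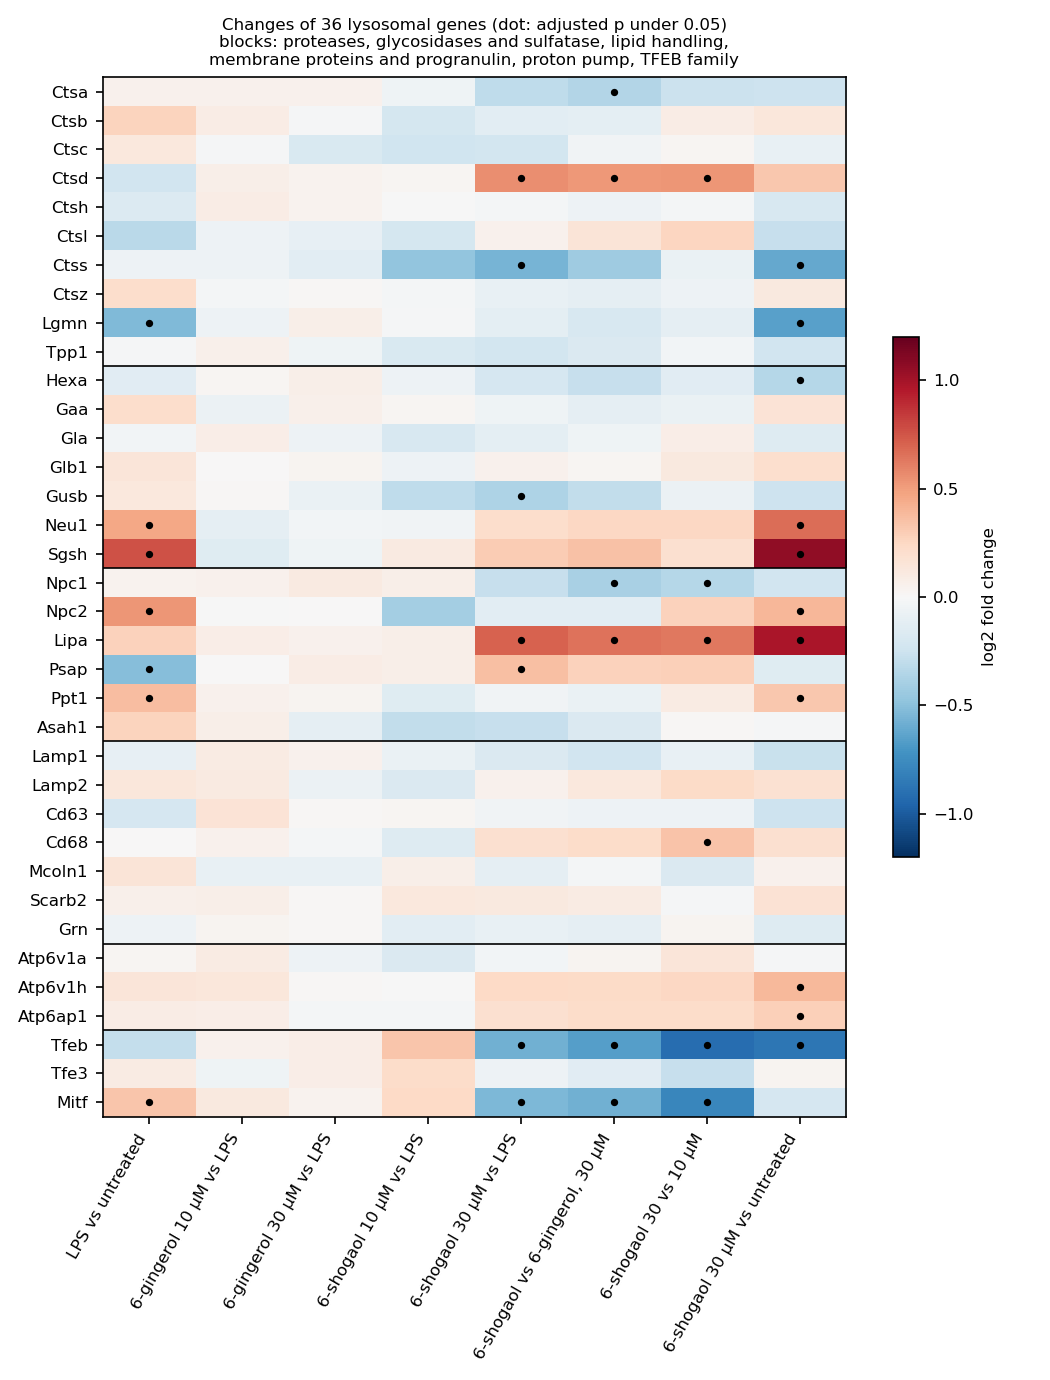
Log2 fold change of the 36 lysosomal genes (rows, in blocks by role) in 8 comparisons (columns); a dot marks an adjusted p under 0.05. The 3 columns of 6-gingerol and of 10 µM 6-shogaol against LPS hold no dot, and the 4 columns with 30 µM 6-shogaol hold most of them.

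Among the proteases, Lgmn fell with LPS and Ctsd rose and Ctss fell with LPS plus 30 µM 6-shogaol; no other protease passed the test against LPS or between LPS and untreated. Lgmn encodes legumain, an asparaginyl endopeptidase that trims other lysosomal proteases. It stood at 1122 and 1194 CPM untreated and at 776 and 826 CPM with LPS. The groups did not overlap, and the change was -0.53 ± 0.10 (log2, SE; edgeR adjusted p = 0.00256). All 8 compound libraries stayed between 731 and 874 CPM, near the LPS libraries and below both untreated ones. The call for Lgmn held under all 11 alternative settings.

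Ctsd, the main aspartic protease of the lysosome, was 3936 and 3937 CPM untreated and 3388 and 3311 with LPS. With 6-gingerol it was 3837 and 3181 CPM at 10 µM and 3516 and 3375 at 30 µM. With 6-shogaol it was 3468 and 3352 CPM at 10 µM and 5273 and 4587 at 30 µM. Both 30 µM 6-shogaol libraries lay above all the others, the untreated pair came next, above every library of the other 4 groups, and those 4 groups were not all separate from each other. Ctsd rose against LPS by 0.56 ± 0.13 (log2, SE; edgeR adjusted p = 0.00447), while the change with LPS itself was -0.23 ± 0.13 (log2, SE; edgeR adjusted p = 0.28). Without the first of the 30 µM 6-shogaol libraries, the higher of the pair, the rise was 0.46 with an edgeR adjusted p of 0.0567. In the annotation Ctsd shares 34.4% of its exon bases with Gm49369 on the same strand, a gene model not analysed here.

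Ctss encodes cathepsin S, a cysteine protease typical of antigen-presenting cells. It was 854 and 611 CPM untreated, 690.5 and 712 with LPS, and 624 and 720.3 and 563 and 722 in the 10 and 30 µM 6-gingerol pairs. With 6-shogaol it was 511 and 501 CPM at 10 µM and 443 and 511 at 30 µM. All 4 6-shogaol libraries lay below both LPS libraries, and the untreated pair was wide. The change at 30 µM was -0.56 ± 0.16 (log2, SE; edgeR adjusted p = 0.0163), and that at 10 µM was -0.47 ± 0.16 (log2, SE; edgeR adjusted p = 0.28), which edgeR called without the filter on low counts or on the compared groups alone. Ctss was higher in the library with the shorter fragments in 5 of the 6 pairs, and with fragment length added to the fit the 30 µM call remained. Leaving out the first LPS library, the second LPS library or the first 30 µM 6-shogaol library ended that call, with edgeR adjusted p = 0.0666, 0.089 and 0.137.

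The other 7 proteases (Ctsa, Ctsb, Ctsc, Ctsh, Ctsl, Ctsz and Tpp1, a tripeptidyl peptidase) were not called against LPS. Ctsa stood at 1908 and 1959.5 CPM with LPS and at 1622 and 1515 with 30 µM 6-shogaol, the lowest 2 of its 12 libraries. Its change against LPS was -0.30 ± 0.11 (log2, SE; edgeR adjusted p = 0.0502), just outside the threshold. It was called against LPS by DESeq2 (adjusted p = 0.00158) and in edgeR fits with scaling by library totals, no filter on low counts, the compared groups alone or the replicate block (adjusted p = 0.0362 to 0.0473). The change against 30 µM 6-gingerol was -0.35 ± 0.11 (log2, SE; edgeR adjusted p = 0.0264). Leaving out any 1 of the 4 libraries ended the call against 6-gingerol (edgeR adjusted p = 0.0661 to 0.165). Ctsl, a cysteine protease with broad specificity, shows how far the untreated pair could differ, with 2835 and 2081 CPM. Its change with LPS was -0.32 ± 0.14 (log2, SE; edgeR adjusted p = 0.167), and without the second untreated library it was -0.50 with an edgeR adjusted p of 0.0161. Ctsb, at 3852 and 3373 CPM untreated and 4410.0 and 4261 with LPS, changed by 0.26 ± 0.12 (log2, SE; edgeR adjusted p = 0.192), called by DESeq2 only. Over the 10 proteases the median change was -0.04 with LPS and -0.12 with 30 µM 6-shogaol against LPS, where 8 of the 10 were below 0 without regard to the test.

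Among the enzymes that take apart sugar chains, Sgsh and Neu1 rose with LPS, Gusb fell with LPS plus 30 µM 6-shogaol, and the other 4 passed neither test. Sgsh, the sulfamidase of heparan sulfate breakdown, was 7.24 and 9.40 CPM untreated and 15.1 and 13.2 with LPS. In the 6-gingerol pairs it was 11.9 and 13.6 and 13.3 and 14.0 CPM, and in the 6-shogaol pairs 14.4 and 16.0 and 18.0 and 16.8 CPM, at 10 and 30 µM. Every library with LPS lay above both untreated ones. The rise with LPS was 0.76 ± 0.15 (log2, SE; edgeR adjusted p = 0.00288) and held under all 11 alternative settings. Exons of Sgsh overlap those of Card14 on the opposite strand over 21.6% of their bases, and the strand setting of the counting is not given in the sources used here. Card14 stood at 13.5 ± 1.03 CPM untreated and 10.4 ± 0.272 with LPS (SD, n = 2), the opposite order to Sgsh.

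Neu1 encodes the lysosomal sialidase, which removes terminal sialic acid. It was 180.2 and 209 CPM untreated, 257 and 279 with LPS and 325 and 297 with 30 µM 6-shogaol. The 3 pairs did not overlap. The rise with LPS was 0.46 ± 0.13 (log2, SE; edgeR adjusted p = 0.026). It was not called without the first untreated, the first LPS or the second LPS library (edgeR adjusted p = 0.11, 0.0712 and 0.201), nor with scaling by library totals (0.0687). The change from LPS to 30 µM 6-shogaol was 0.21 ± 0.13 (log2, SE; edgeR adjusted p = 0.242).

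Gusb, beta-glucuronidase, was 651 and 629.9 CPM with LPS and 587 and 587 untreated. With 6-shogaol it was 536 and 502 CPM at 10 µM and 515 and 474 at 30 µM, and with 6-gingerol 713 and 582 and 635 and 578 CPM. The 4 6-shogaol libraries were the lowest of the 12. The change at 30 µM was -0.37 ± 0.12 (log2, SE; edgeR adjusted p = 0.0272), and it was lost without any 1 of the 4 libraries compared (edgeR adjusted p = 0.063 to 0.169). At 10 µM the change was -0.30 ± 0.12 (log2, SE; edgeR adjusted p = 0.357). The uncalled Hexa, a beta-hexosaminidase subunit, Gaa, the glycogen-degrading glucosidase, Gla, the alpha-galactosidase, and Glb1, the beta-galactosidase, changed by -0.14, 0.21, -0.04 and 0.15 with LPS and by -0.20, -0.05, -0.11 and 0.05 with 30 µM 6-shogaol against LPS, on the log2 scale.

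Lipid handling held the gene with the widest rise under 30 µM 6-shogaol, and its members moved in different directions. Lipa, lysosomal acid lipase, which hydrolyses cholesteryl esters and triglycerides, was 222 and 208 CPM untreated and 270.3 and 249 with LPS. It was 292 and 258 and 274 and 265 CPM in the 10 and 30 µM 6-gingerol pairs. In the 6-shogaol pairs it was 277 and 269 CPM at 10 µM and 407 and 439 at 30 µM. The 30 µM 6-shogaol libraries stood apart above all the others, and the 10 µM pair lay among the LPS and 6-gingerol libraries. Lipa rose against LPS by 0.71 ± 0.10 (log2, SE; edgeR adjusted p = 0.000128), 1.63-fold, and that call held under all 11 alternative settings. The change with LPS was 0.27 ± 0.10 (log2, SE; edgeR adjusted p = 0.0967), called by DESeq2 only.

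Psap is the precursor of the saposins that help enzymes degrade sphingolipids. Its level was lower with LPS than untreated, and with LPS plus 30 µM 6-shogaol it lay in between. It was 2459.7 and 2371 CPM untreated, 1694 and 1700.5 with LPS and 2233 and 2126 with 30 µM 6-shogaol, and the 3 pairs did not overlap. The 6-gingerol and 10 µM 6-shogaol libraries lay between 1656 and 1842 CPM. Psap fell with LPS by 0.51 ± 0.11 (log2, SE; edgeR adjusted p = 0.00507) and rose against LPS with 30 µM 6-shogaol by 0.36 ± 0.11 (log2, SE; edgeR adjusted p = 0.0231). The first call was lost without either LPS library (edgeR adjusted p = 0.0542 and 0.0551) and with the compared groups fitted alone (0.0698), the second without any 1 of its 4 libraries (0.0596 to 0.125).

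Npc1 and Npc2, which hand cholesterol from the lysosomal lumen to its membrane, did not move together. Npc2, the soluble carrier, was 455 and 402 CPM untreated and 628 and 609 with LPS. With 6-shogaol it was 483 and 452 CPM at 10 µM and 570.3 and 563 at 30 µM. It rose with LPS by 0.53 ± 0.11 (log2, SE; edgeR adjusted p = 0.00395). The 10 µM 6-shogaol pair was below every other library with LPS and close to the untreated pair, and the change against LPS was -0.40 ± 0.11 (log2, SE; edgeR adjusted p = 0.149); DESeq2, edgeR without the filter on low counts and edgeR on the compared groups alone called it. Npc1, the membrane transporter, was 159 and 162 CPM with LPS and 133 and 133 with 30 µM 6-shogaol, the lowest 2 of the 12. Its change against LPS was -0.27 ± 0.10 (log2, SE; edgeR adjusted p = 0.0519). It was called there by DESeq2 (adjusted p = 0.0412), by limma on the authors' table (0.0386), and by edgeR with the compared groups alone (0.024) or fragment length in the fit (0.0334). Its change against 30 µM 6-gingerol was -0.39 ± 0.10 (log2, SE; edgeR adjusted p = 0.00957).

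Ppt1, a thioesterase that removes palmitate from proteins, was 93.0 and 88.2 CPM untreated and 115 and 119 with LPS, a rise of 0.37 ± 0.10 (log2, SE; edgeR adjusted p = 0.0198). It was not called without the second untreated, the first LPS or the second LPS library (edgeR adjusted p = 0.0522, 0.0822 and 0.154), nor with the compared groups fitted alone (0.0704). In the other 4 groups Ppt1 lay between 103 and 129 CPM, above both untreated libraries. Asah1, acid ceramidase, was 461 and 331 CPM in the untreated pair and 489 and 466 with LPS. The change was 0.27 ± 0.15 (log2, SE; edgeR adjusted p = 0.281), and without the first untreated library it was 0.53 with an edgeR adjusted p of 0.0154.

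**Figure D3:**
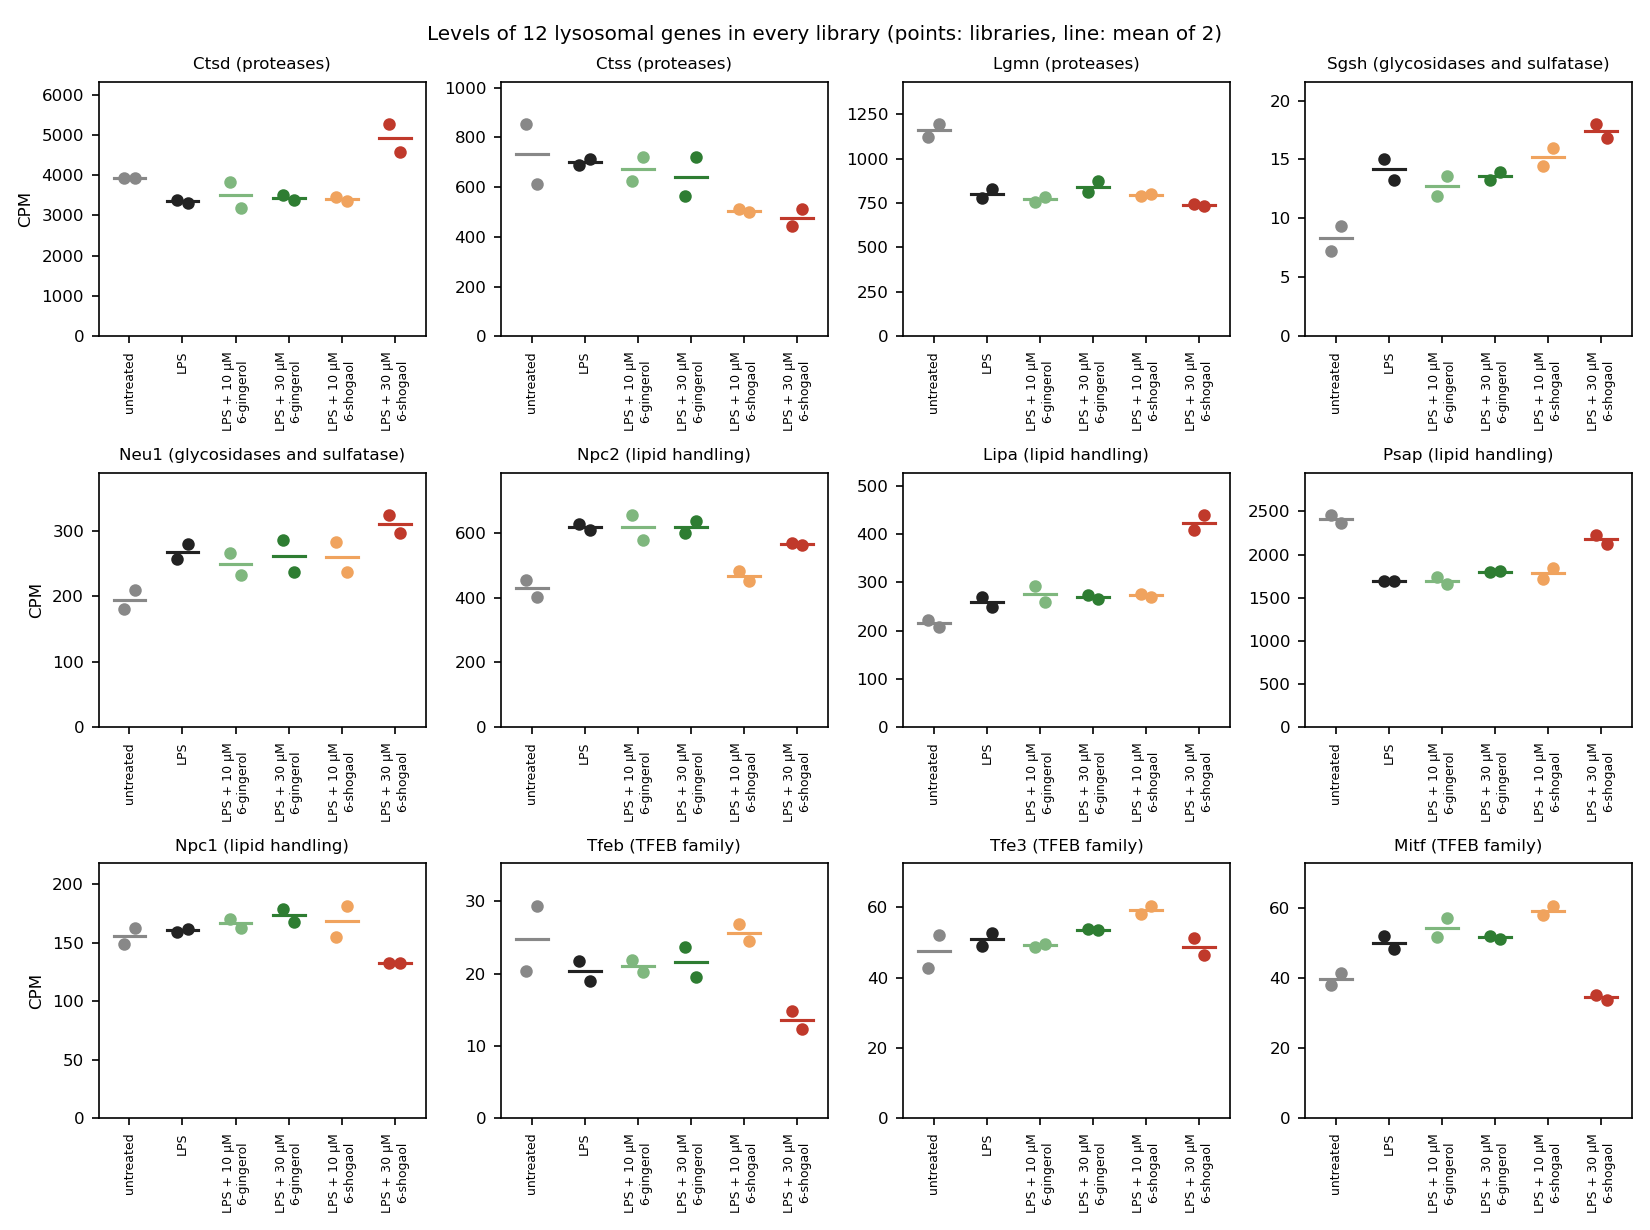
CPM of 12 lysosomal genes in each library (points) with the mean of the 2 libraries (line), by treatment group; every vertical axis starts at 0. Lipa and Ctsd stand highest in both 30 µM 6-shogaol libraries, Tfeb, Mitf and Npc1 stand lowest there, and Lgmn stands highest in the 2 untreated libraries.

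Of the 7 genes of membrane proteins and progranulin, none was called with LPS or with any compound against LPS, and 0 of 7 were at an unadjusted p under 0.05 with LPS and with 30 µM 6-shogaol, where 24.6% and 36.7% of all genes were. DESeq2 and limma called none of them either. Lamp1 and Lamp2, the main glycoproteins of the lysosomal membrane, were 1602 and 1672 and 801 and 617 CPM untreated, 1520.0 and 1548 and 809 and 747 with LPS, and 1378 and 1344 and 769 and 845 with 30 µM 6-shogaol, naming first the Lamp1 pair and then the Lamp2 pair each time. Lamp1 was lowest in the 30 µM 6-shogaol pair, while the Lamp2 pairs overlapped. The 95% interval of the change from LPS to 30 µM 6-shogaol was -0.40 to 0.05 for Lamp1 and -0.22 to 0.33 for Lamp2. Cd68, a macrophage membrane glycoprotein, was 659.8 and 713 CPM with 10 µM and 895 and 847 with 30 µM 6-shogaol, the lowest and the highest pair. The step between those doses was 0.34 ± 0.11 (log2, SE; edgeR adjusted p = 0.0362), and it was lost without any 1 of the 4 libraries (edgeR adjusted p = 0.1 to 0.233) with scaling by library totals (0.063) and with fragment length in the fit (0.0515). Grn, the progranulin precursor, changed by -0.06 with LPS and -0.09 with 30 µM 6-shogaol, Mcoln1, the calcium channel TRPML1, by 0.16 and -0.11, and Scarb2, the receptor that sorts glucocerebrosidase, by 0.06 and 0.12, on the log2 scale. Cd63, a tetraspanin, had pairs as wide as 644 and 472 CPM with 10 µM 6-gingerol and 551 and 446 with LPS.

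The 3 proton pump genes were not called with LPS or with any compound against LPS. Atp6v1h, a subunit of the cytosolic V1 part, was 189.6 and 179 CPM with LPS and 208 and 227 with 30 µM 6-shogaol, a change of 0.24 ± 0.10 (log2, SE; edgeR adjusted p = 0.107). Atp6ap1, an accessory protein of the pump, was 265 and 256 CPM with LPS and 295 and 302 with 30 µM 6-shogaol, a change of 0.20 ± 0.09 (log2, SE; edgeR adjusted p = 0.134). Both 30 µM 6-shogaol libraries were above both LPS libraries for these 2 genes. Atp6v1a, the catalytic subunit, was 695 and 636 CPM with LPS and 640.1 and 663 with 30 µM 6-shogaol; the pairs overlapped.

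In the transcription factor family, Mitf and Tfeb fell with LPS plus 30 µM 6-shogaol and Tfe3 did not pass the test. Tfeb was 20.3 and 29.4 CPM untreated and 21.7 and 19.0 with LPS. It was 21.9 and 20.2 and 23.7 and 19.5 CPM in the 10 and 30 µM 6-gingerol pairs. In the 6-shogaol pairs it was 26.8 and 24.5 CPM at 10 µM and 14.9 and 12.3 at 30 µM. The 30 µM 6-shogaol libraries were the lowest of the 12, and the 10 µM pair lay above all LPS and 6-gingerol libraries. Tfeb changed against LPS by -0.58 ± 0.17 (log2, SE; edgeR adjusted p = 0.0222) at 30 µM and by 0.33 ± 0.16 (log2, SE; edgeR adjusted p = 0.472) at 10 µM. The 30 µM call was lost without the first LPS library (edgeR adjusted p = 0.15) or without the second 30 µM 6-shogaol library (0.178), and with limma on the authors' table (limma adjusted p = 0.0658). With LPS alone the change was -0.29 ± 0.16 (log2, SE; edgeR adjusted p = 0.305), and without the first untreated library it was -0.53 with an edgeR adjusted p of 0.0292.

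Mitf was 37.8 and 41.4 CPM untreated and 51.8 and 48.2 with LPS. It was 57.8 and 60.5 CPM with 10 µM and 35.2 and 33.7 with 30 µM 6-shogaol, and between 51.1 and 56.9 CPM in the 4 6-gingerol libraries. The 30 µM 6-shogaol pair was the lowest of all and the 10 µM pair the highest. Mitf changed against LPS by -0.54 ± 0.10 (log2, SE; edgeR adjusted p = 0.00135) at 30 µM and by 0.24 ± 0.10 (log2, SE; edgeR adjusted p = 0.396) at 10 µM. The 30 µM call held under all 11 alternative settings. Its rise with LPS, 0.34 ± 0.10 (log2, SE; edgeR adjusted p = 0.0416), was lost under 7 of 11, among them leaving out the first untreated, the first LPS or the second LPS library (0.158, 0.266 and 0.111). Tfe3 was 42.9 and 52.3 CPM untreated, 49.0 and 52.7 with LPS and 51.2 and 46.4 with 30 µM 6-shogaol, and these pairs overlapped. It was highest in the 10 µM 6-shogaol pair, at 58.1 and 60.4 CPM. The change from LPS to 30 µM 6-shogaol was -0.06 ± 0.11 (log2, SE; edgeR adjusted p = 0.733), with a 95% interval of -0.30 to 0.17.

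**Figure D4:**
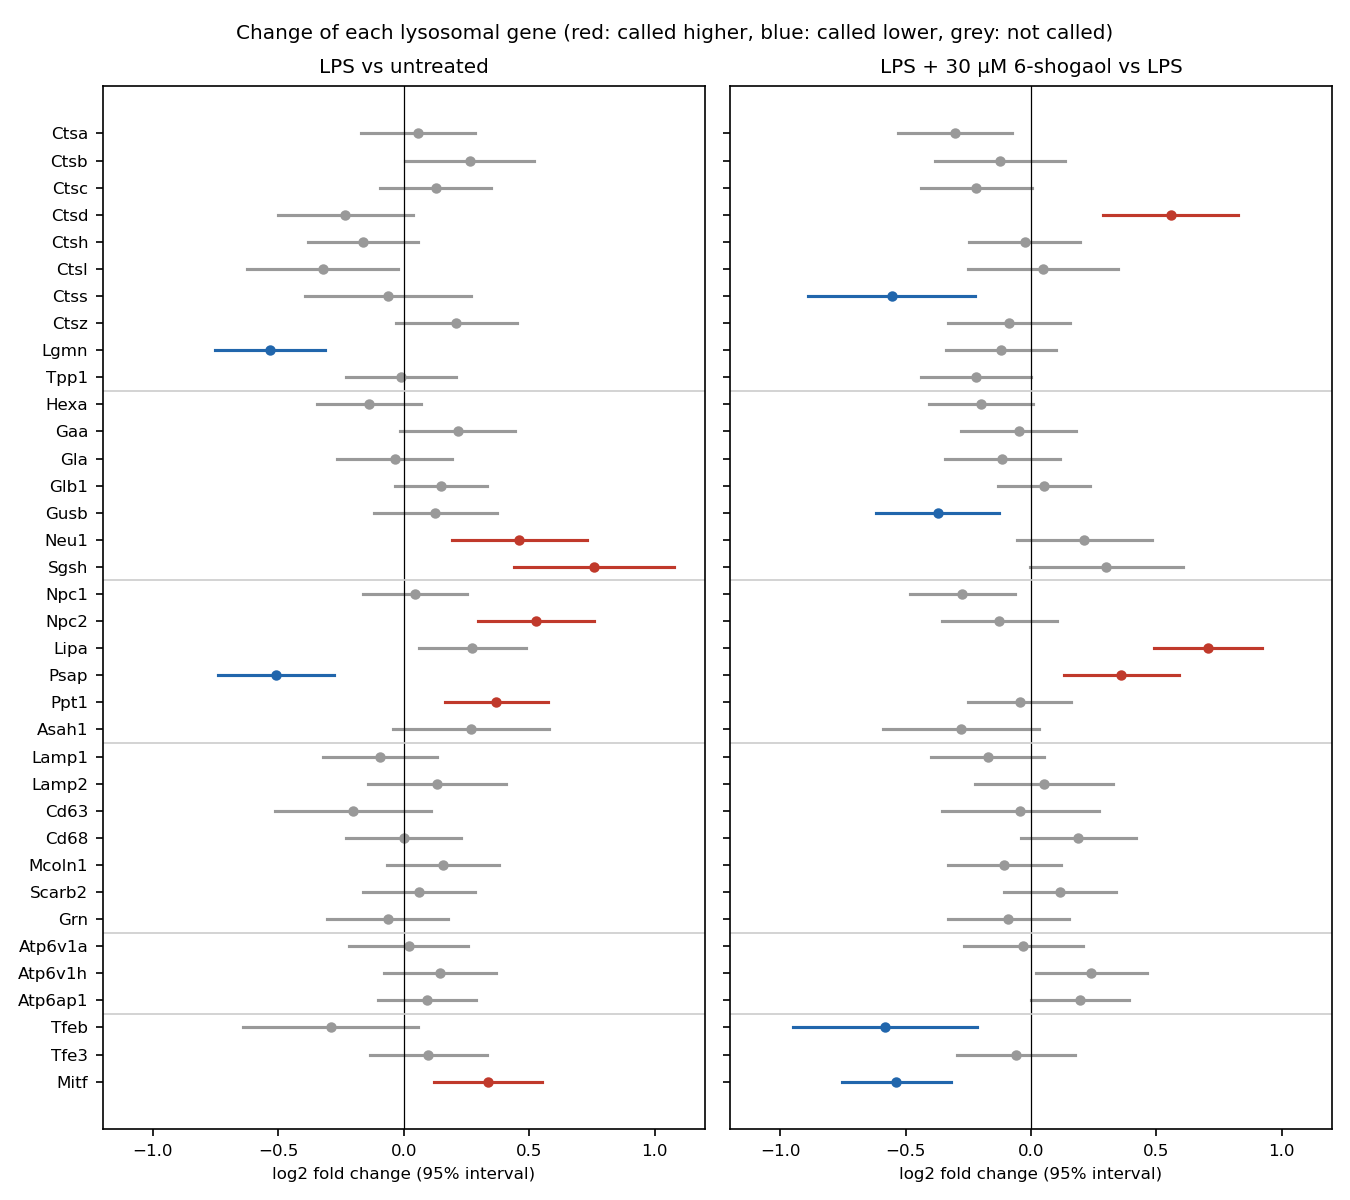
Log2 fold change (point) with its 95% interval (line) of each lysosomal gene for LPS against untreated (left) and LPS plus 30 µM 6-shogaol against LPS (right), ordered by role, with called genes in red (higher) or blue (lower). Sgsh at 0.76 is farthest right on the left panel and Lipa at 0.71 on the right panel, where Tfeb, Ctss and Mitf lie near -0.55.

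The 2 compounds were set against each other at matched doses, in 2 comparisons of 36 genes each with p adjusted over all 12705 genes. At 10 µM 0 of 36 differed, where 0.638% of all genes were called. At an unadjusted p under 0.05 were 11 of 36, where 14.6% of all genes were; DESeq2 called 1, Npc2 at -0.40, and limma 0. The 95% intervals of the 36 differences ran from -0.74 to 0.63, so larger differences than these lie outside every gene's interval at that dose. At 30 µM 6 of 36 differed (16.7%), 2 higher and 4 lower with 6-shogaol, where 25% of all genes were called (12.5% higher and 12.4% lower). 6-shogaol gave higher Lipa, by 0.65 ± 0.10 (log2, SE; edgeR adjusted p = 0.000272), and higher Ctsd, by 0.52 ± 0.13 (log2, SE; edgeR adjusted p = 0.00766). It gave lower Tfeb, at -0.66 ± 0.17 (log2, SE; edgeR adjusted p = 0.0107), and lower Mitf, at -0.58 ± 0.10 (log2, SE; edgeR adjusted p = 0.000757), besides Npc1 and Ctsa given above. The remaining 30 genes did not pass the test, and 3 of them (Ctss, Hexa, Gusb) lay just outside it, with edgeR adjusted p = 0.0559, 0.0541 and 0.0754. DESeq2 called these 3 with Psap and Lamp1 besides, and scaling by library totals called the 3 as well. Without the first 30 µM 6-gingerol library Tfeb and Npc1 were not called (edgeR adjusted p = 0.106 and 0.0808), without the second neither was Ctsd (0.058). Without the first 30 µM 6-shogaol library Ctsd and Npc1 were not called (0.0801 and 0.0505), without the second neither were Tfeb and Npc1 (0.116 and 0.0571).

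Between 10 and 30 µM 6-shogaol, 6 of 36 differed (16.7%), 3 in each direction, where 19.4% of all genes were called (9.85% higher and 9.54% lower at 30 µM). At 30 µM Lipa was higher by 0.63 ± 0.10 (log2, SE; edgeR adjusted p = 0.000519) and Ctsd by 0.53 ± 0.13 (log2, SE; edgeR adjusted p = 0.00848). Tfeb was lower, at -0.91 ± 0.17 (log2, SE; edgeR adjusted p = 0.00177), as were Mitf, at -0.78 ± 0.10 (log2, SE; edgeR adjusted p = 0.000107), and Npc1, at -0.34 ± 0.10 (log2, SE; edgeR adjusted p = 0.023); Cd68 is given above. The calls for Lipa, Tfeb and Mitf held under all 11 alternative settings. Ctsd was lost without either 10 µM library or the first 30 µM library (edgeR adjusted p = 0.0543 to 0.0874), and Npc1 without the second 10 µM library or either 30 µM library (0.0904 to 0.26).

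Whether the step from 10 to 30 µM differed between the compounds was tested as an interaction. It did for 3 of 36 (8.33%), where 8.17% of all genes were called (4.27% higher and 3.9% lower). The step was larger with 6-shogaol for Lipa, by 0.66 ± 0.14 (log2, SE; edgeR adjusted p = 0.0116). It was more negative with 6-shogaol for Tfeb, by -0.95 ± 0.24 (log2, SE; edgeR adjusted p = 0.025), and for Mitf, by -0.70 ± 0.14 (log2, SE; edgeR adjusted p = 0.00837). For Ctsd the difference in steps was 0.56 ± 0.18 (log2, SE; edgeR adjusted p = 0.0675), for Npc1 -0.40 ± 0.14 (log2, SE; edgeR adjusted p = 0.085) and for Cd68 0.42 ± 0.15 (log2, SE; edgeR adjusted p = 0.1), all outside the threshold. DESeq2 called Ctsd (DESeq2 adjusted p = 0.00402) and Cd68 (0.0233). edgeR called Ctsd without the filter on low counts (edgeR adjusted p = 0.00637), with the compared groups alone (0.0476) and with the replicate block (0.0479). Npc1 was called with scaling by library totals (edgeR adjusted p = 0.0381) and by limma on the authors' table (limma adjusted p = 0.0488). Without the second 10 µM 6-gingerol library the difference for Ctsd was 0.69. The Tfeb call was lost under 7 of 15 alternatives: limma on the authors' table (limma adjusted p = 0.0685), and leaving out either 10 µM 6-gingerol library, the first 30 µM 6-gingerol library, either 10 µM 6-shogaol library or the second 30 µM 6-shogaol library (edgeR adjusted p = 0.0598 to 0.123). The Mitf call was lost with limma (limma adjusted p = 0.129) and without the second 10 µM 6-shogaol library (edgeR adjusted p = 0.0547). The Lipa call was lost without the second 10 µM or the second 30 µM 6-shogaol library (edgeR adjusted p = 0.071 and 0.0605).

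**Figure D5:**
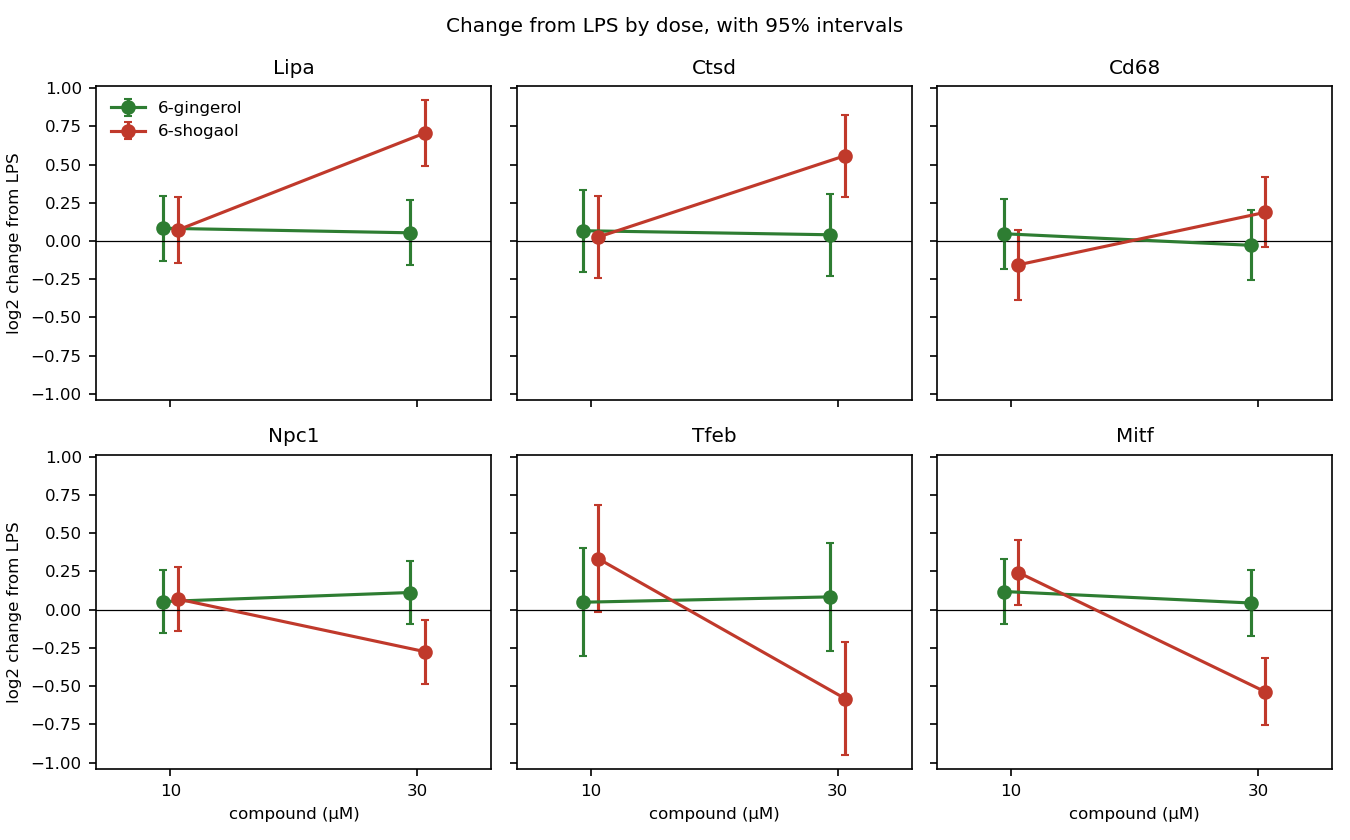
Change from LPS (log2) at 10 and 30 µM of 6-gingerol (green) and 6-shogaol (red) for 6 lysosomal genes, with 95% intervals; all points share the 2 LPS libraries. The 6-gingerol points lie near 0 at both doses, and the 6-shogaol points leave 0 between 10 and 30 µM for Lipa (0.07 to 0.71), Tfeb (0.33 to -0.58) and Mitf (0.24 to -0.54).

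Against untreated cells, LPS with 30 µM 6-shogaol called 11 of 36 (30.6%), 7 higher and 4 lower, where 25.4% of all genes were called (13.3% higher and 12.1% lower). Genes that LPS alone had raised stayed above untreated, except Mitf: Sgsh by 1.06 ± 0.15 (log2, SE; edgeR adjusted p = 0.000112), Neu1 by 0.67 ± 0.13 (log2, SE; edgeR adjusted p = 0.00128), Npc2 by 0.40 ± 0.11 (log2, SE; edgeR adjusted p = 0.0134) and Ppt1 by 0.32 ± 0.10 (log2, SE; edgeR adjusted p = 0.0233). Lgmn stayed below untreated, at -0.65 ± 0.10 (log2, SE; edgeR adjusted p = 0.000332). Lipa was higher by 0.98 ± 0.10 (log2, SE; edgeR adjusted p = 6.66e-06), 1.97-fold. Lower than in untreated cells were also Tfeb, at -0.87 ± 0.17 (log2, SE; edgeR adjusted p = 0.00166), Ctss, at -0.62 ± 0.16 (log2, SE; edgeR adjusted p = 0.00898), and Hexa, at -0.34 ± 0.10 (log2, SE; edgeR adjusted p = 0.0196). Of the pump genes, Atp6v1h was higher by 0.39 ± 0.10 (log2, SE; edgeR adjusted p = 0.0139) and Atp6ap1 by 0.29 ± 0.09 (log2, SE; edgeR adjusted p = 0.0313). For Psap the change from untreated was -0.15 and for Mitf -0.20, neither called. DESeq2 called Ctsd higher, at 0.34 (DESeq2 adjusted p = 0.00678). So did edgeR without the filter on low counts (edgeR adjusted p = 0.0223) and with the replicate block (0.0494). Ctsa was called lower by DESeq2 (DESeq2 adjusted p = 0.0244) and with scaling by library totals (edgeR adjusted p = 0.0361). That scaling also called Tpp1 lower (edgeR adjusted p = 0.0374), and limma called Npc1 lower (limma adjusted p = 0.0361). Lamp1 is given above. Leaving out the second untreated library ended the calls of Hexa, Npc2, Ppt1, Atp6v1h and Atp6ap1 (edgeR adjusted p = 0.0502 to 0.0926), leaving out the first ended those of Ctss and Atp6ap1 (0.0825 and 0.0565). Without the first 30 µM 6-shogaol library Ctss, Hexa, Npc2 and Atp6ap1 were not called (0.0565 to 0.0901), and without the second neither were Hexa, Ppt1, Atp6v1h and Atp6ap1 (0.0859 to 0.16). With the compared groups fitted alone Hexa, Npc2, Ppt1, Atp6v1h and Atp6ap1 were not called (edgeR adjusted p = 0.0733 to 0.181), with scaling by library totals Ppt1 and Atp6ap1 were not (0.0539 and 0.0626), and without the filter on low counts Atp6ap1 was not (0.0795).

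Counts by role are given as a description, beside the shares of all genes called, 11.8% with LPS and 25.4% with 30 µM 6-shogaol; differences between roles were not tested. With LPS 3 of 6 lipid genes, 2 of 7 sugar-chain enzymes, 1 of 10 proteases, 1 of 3 transcription factors, 0 of 3 pump genes and 0 of 7 membrane proteins were called. With 30 µM 6-shogaol against LPS the counts were 2 of 6, 1 of 7, 2 of 10, 2 of 3, 0 of 3 and 0 of 7 in the same order. The median changes in that comparison were -0.09 for lipid handling, -0.05 for the sugar-chain enzymes, -0.12 for the proteases, -0.54 for the transcription factors, 0.20 for the pump genes and -0.04 for the membrane proteins, against 0.00 for all genes.

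A wider list of 78 further genes of the lysosome, of which 76 passed the filter, was read in the same fit. With LPS 8 rose and 4 fell (15.8%), and with 30 µM 6-shogaol against LPS 13 rose and 10 fell (30.3%), beside 11.8% and 25.4% of all genes. With 6-gingerol 0 of 76 were called at either dose, where 2 and 0 were at an unadjusted p under 0.05, and with 10 µM 6-shogaol 1 was, the phosphatase Acp5, lower. Acp5 is a low gene: its assigned fragments were 5 and 8 untreated, 76 and 105 with LPS, 40 and 42 with 10 µM and 3 and 3 with 30 µM 6-shogaol. It was called higher with LPS (edgeR adjusted p = 5.07e-07) and lower with 30 µM 6-shogaol against LPS (5.15e-07). Its counts untreated and with 30 µM 6-shogaol were so low that it passed the filter only through the other groups. The direction it could take in these 2 comparisons was thus largely set by the filter. Among the other hydrolases, 12 of 28 were called with 30 µM 6-shogaol, 6 in each direction. Ctsk, the collagen-degrading cathepsin K, fell with LPS, at -0.38 (edgeR adjusted p = 0.0401), and rose with 30 µM 6-shogaol, at 0.62 (edgeR adjusted p = 0.000945). Man2b1, the acid alpha-mannosidase, rose with 30 µM 6-shogaol, at 0.56 (edgeR adjusted p = 0.000702), while Acp2, the lysosomal acid phosphatase, rose with LPS, at 0.42 (edgeR adjusted p = 0.00642), and fell with 30 µM 6-shogaol, at -0.75 (edgeR adjusted p = 3.76e-05). Idua, the alpha-iduronidase, fell there too, at -0.57 (edgeR adjusted p = 0.000769), and the hyaluronidase family member Hyal2 rose, at 0.50 (edgeR adjusted p = 0.0254). With LPS Aga, the aspartylglucosaminidase, rose, at 0.53 (edgeR adjusted p = 0.00526), and Ctsf, cathepsin F, fell, at -0.49 (edgeR adjusted p = 0.00909).

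Of 14 other lysosomal membrane proteins, Clcn7, a chloride-proton exchanger, rose with LPS, at 0.57 (edgeR adjusted p = 0.000779). Laptm5 fell with LPS, at -0.75 (edgeR adjusted p = 0.000529), and rose with 30 µM 6-shogaol, at 0.65 (edgeR adjusted p = 0.00119). The sialomucin Cd164 rose with 30 µM 6-shogaol, at 0.57 (edgeR adjusted p = 0.000834), as did the cation channel Tpcn1, at 0.48 (edgeR adjusted p = 0.0168), and Cln3, the protein of a childhood lysosomal storage disease, fell, at -0.46 (edgeR adjusted p = 0.00508). Of 14 other pump subunits, Atp6v0d2 fell with LPS, at -1.42 (edgeR adjusted p = 0.00426), from a mean of 4.26 to 1.60 CPM, and 13 were not called. Of the same 14, Atp6v0d1 rose with 30 µM 6-shogaol, at 0.45 (edgeR adjusted p = 0.00726), Atp6v1c1 fell, at -0.34 (edgeR adjusted p = 0.0437), and 12 were not called. Among the genes of mTORC1 and TFEB control at the lysosome 11 of 13 passed the filter. The GTPases Rragd and Rragc rose with 30 µM 6-shogaol, at 0.53 (edgeR adjusted p = 0.00486) and 0.32 (edgeR adjusted p = 0.0171), and 9 were not called. Cystatin F, the secreted cysteine protease inhibitor encoded by Cst7, rose with LPS, at 1.10 (edgeR adjusted p = 5.56e-05), and fell with 30 µM 6-shogaol, at -1.07 (edgeR adjusted p = 7.62e-05), while Cstb, cystatin B, rose with 30 µM 6-shogaol, at 0.42 (edgeR adjusted p = 0.0289). Of the mannose 6-phosphate receptors that deliver hydrolases, M6pr rose with LPS, at 0.37 (edgeR adjusted p = 0.0207). Igf2r rose with LPS, at 2.76 (edgeR adjusted p = 0.000367), and fell with 30 µM 6-shogaol, at -1.21 (edgeR adjusted p = 0.0247), at levels under 4 CPM. Its untreated mean was 0.41 CPM, so it too passed the filter through other groups.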

How the data were processed

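The authors deposited 1 RSEM table for each library with an expected count (estimated fragments per gene, not normalized), a TPM and an FPKM for every Ensembl gene, per the file headers. The submitters' processing notes name RSEM 1.3.3 and STAR 2.7.11b, beside Trimmomatic 0.39, DESeq2 1.44.0, R 4.4.2 and FastQC 0.12.1, with mouse build GRCm38 (mm10). Those names were available here without their roles or order. The kit in the labels' protocols keeps strand. The annotation release and RSEM's strand setting are not given in the sources used here. The authors also deposited a table of signal normalized per library, by a method not given in the sources used here, which served for 1 alternative. FPKM as deposited was not used.

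Expected counts (7.03% of the values not whole) were rounded and fitted over all 12 libraries in 6 groups with edgeR 4.0.16 in R 4.3.3: filterByExpr, TMM scaling, glmQLFit and glmQLFTest, with Benjamini-Hochberg adjustment over 12705 genes in each of 10 contrasts. CPM are per TMM-scaled library, and 95% intervals come from the fit. The common biological coefficient of variation was 9.45%, with 6 residual degrees of freedom. Assigned fragments per library ranged from 16534960 to 21179867, and the lowest lysosomal gene, Sgsh, averaged 252.8 fragments, where counting error alone gives a coefficient of variation of 6.29%. DESeq2 1.42.0 and limma 3.58.1 served as alternatives. Symbols matched 97.8% of identifiers. Positions and exon overlaps come from GENCODE M21 and promoter sequences from RefSeq.

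The 36 genes, the wider lists and the tests were chosen with earlier results of these data known. All 36 could be named. For each role up to 6 genes called against LPS or untreated were given by library, and for each wider list up to 3 genes in each direction with the widest called change with LPS or with 30 µM 6-shogaol.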

Additional observations from a re-analysis of the deposited data

Results flagged for a closer look

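For 3 lysosomal genes the step from 10 to 30 µM differed between the compounds by the test of that difference. For Lipa the step of 6-shogaol minus that of 6-gingerol was 0.66 on the log2 scale (edgeR adjusted p = 0.0116); both 30 µM 6-shogaol libraries were higher than both 10 µM ones. For Tfeb the same difference was -0.95 (edgeR adjusted p = 0.025) and for Mitf -0.70 (edgeR adjusted p = 0.00837), where both 30 µM 6-shogaol libraries were lower than both 10 µM ones. Of all genes 8.17% passed this test. Of 15 alternatives, 2 ended the call for Lipa (leaving out the second 10 µM or the second 30 µM 6-shogaol library), 2 for Mitf (limma on the authors' table, and leaving out the second 10 µM 6-shogaol library) and 7 for Tfeb (limma, and leaving out any 1 of the 8 libraries but the second 30 µM 6-gingerol and the first 30 µM 6-shogaol one). Over all 15 alternatives the adjusted p reached 0.071 for Lipa, 0.123 for Tfeb and 0.129 for Mitf. Groups of 2 libraries are too small for a check of single outlying libraries.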

How the results depend on the processing

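In none of the 10 contrasts did a called lysosomal gene reverse its direction under any alternative run. Over single genes, 3947 of the alternative values kept their side of the threshold, 67 passed it newly and 90 fell below it. The count of the 36 genes called moved by more than 1.5 times as follows. Fitting the compared groups alone called 4 in place of 7 for LPS, 4 in place of 0 for 10 µM 6-shogaol against LPS (Ctss, Gusb, Npc2 and Asah1, all lower), 10 in place of 6 for 30 against 10 µM 6-shogaol, and 6 in place of 11 for 30 µM 6-shogaol against untreated. DESeq2 called 1 in place of 0 for 10 µM 6-shogaol both against LPS and against 10 µM 6-gingerol, 11 in place of 6 for 30 µM 6-shogaol against 30 µM 6-gingerol, and 5 in place of 3 for the dose steps. No filter on low counts gave 2 in place of 0 for both of those 10 µM comparisons (Ctss and Npc2). Leaving out 1 library at a time, with the lone library assumed to vary like the other groups, gave 3 to 7 for LPS, 3 to 4 for 30 µM 6-shogaol against LPS, 3 to 4 against 30 µM 6-gingerol, 3 to 4 against 10 µM 6-shogaol, 7 to 10 against untreated and 0 to 3 for the dose steps. The cause of these differences was not tested beyond the fewer libraries. Scaling by library totals moved the median of all genes to 0.11 for 6-shogaol against 6-gingerol at 10 µM and to -0.15 for the dose steps, and changed no direction of a called gene. Library numbers were shared across groups. In 15 pairs of groups the differences between libraries 1 and 2 correlated from -0.31 to 0.18, above 0.1 in 5 and below -0.1 in 2. These values show no strong shared shift, but cannot show whether same-numbered libraries were handled together. The replicate block gave 7 for LPS, 8 for 30 µM 6-shogaol against LPS, 7 against 30 µM 6-gingerol, 6 against 10 µM 6-shogaol, 12 against untreated, 4 for the dose steps and 0 for the other contrasts. With 2 libraries per group the 95% interval of a gene spanned a median of about 0.23 on either side, and 0.32 for the dose steps. That width is not the limit for a call, which rests on the adjusted p. Larger changes also went uncalled, such as Ctss at -0.47 with 10 µM 6-shogaol against LPS.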
